A study of Mus musculus with 6 samples.

Results

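The skeletal muscle genes of the esophagus wall were a set of 37 genes, given by name and found on the arrays as the non-control probes whose gene name in the scanner files is a member. The set held 13 genes of fast fibres, 6 of slow fibres, 7 sarcomere genes and 2 excitation genes shared by both fibre types, 5 genes of energy metabolism and oxygen storage, 2 developmental myosins and 2 myogenic regulators. All 37 were on the array, with 69 probes of the 41174 probes and 28104 gene names measured, and all 37 genes passed the filter on dim probes, as did 20820 genes in all. Of the 37, 34 were well above background on every array of both groups, while Pvalb and Myh3 passed only through the knockout group and Myl2 only through the wild-type group. RNA of the esophagus of adult mice was hybridised to 6 two-colour arrays, and the labels name the samples of a group biological replicates without saying whether animals were pooled. The wild-type group had 3 arrays, strain C57BL/6J. The knockout group had 3 arrays with the genotype K5Cre;Pax9 loxp/loxp, in which the keratin 5 promoter, active in basal cells of stratified epithelia, drives Cre recombinase against Pax9, a transcription factor. Each array held its esophagus sample in Cy5 and the same reference, RNA of 11 mouse cell lines, in Cy3. The labels give the source as the epithelium but the tissue as esophagus, and the extraction protocol, with a kit made for fibrous tissue, speaks of esophageal tissue.

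Skeletal muscle contracts when myosin heavy chains pull on actin filaments inside the sarcomere, and troponins on those filaments switch the pull on when calcium rises. Fast and slow fibres use different genes for the same parts: Myh1, Myh2 and Myh4 are the fast myosin heavy chains and Myh7 is the slow one, and the troponins come in fast (Tnnt3, Tnnc2, Tnni2) and slow (Tnnt1, Tnnc1, Tnni1) versions. The mouse differs from many mammals in that the outer muscle coat of its esophagus is striated along most of its length. A layer of smooth muscle lies closer to the epithelium, so tissue taken from this organ can hold squamous epithelium, connective tissue, smooth muscle and skeletal muscle in any proportion.

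Median background-subtracted Cy5 over all probes lay between 55.95 and 158.8 scanner units per array, and 67.31% to 77.26% of probes were well above background in Cy5. No spot was saturated. Slide 1 (scan 1) held the wild-type group and slide 2 (scan 2) the knockout group, so slide and group cannot be told apart. Pax9 (probe at chr12:57811169-57811228, mm9) had Cy5 signals of 4409, 4708 and 8915 on the wild-type-labelled arrays and 17210, 18930 and 19080 on the knockout-labelled arrays, and was therefore not lower where the label says knockout. Whether this probe lies in the floxed part is not known from the labels or files, and outside it the probe would check nothing. Every direction below is that of the labels. With 3 arrays a group, an exact permutation test cannot go below p = 0.1, and the p-values given speak only of the spread among the arrays at hand.

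The readouts are hybridisations to DNA probes of 60 bases, and the fast and slow versions of a protein were read by probes of different sequence. The probes shown here have 60 bases laid across a longer stretch of the genome, so they skip intervening sequence, and all but that of Myh2 are the main probe of their gene, the one with the highest mean intensity, on which its values rest. They are written in lower case with no base marked, with mm9 positions from the scanner files. The first 4 are of fast fibre genes and the next 4 of slow fibre genes.
Mylpf (fast regulatory light chain), chr7:134356749-134356985, plus strand: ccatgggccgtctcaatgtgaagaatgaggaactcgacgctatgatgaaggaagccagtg
Tnnt3 (fast troponin T), chr7:149698254-149698479, plus strand: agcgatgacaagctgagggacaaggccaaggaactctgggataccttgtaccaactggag
Actn3 (fast alpha-actinin), chr19:4861727-4862212, minus strand: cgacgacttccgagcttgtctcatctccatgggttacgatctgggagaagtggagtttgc
Myh2 (fast myosin 2A, second probe), chr11:67006311-67006475, plus strand: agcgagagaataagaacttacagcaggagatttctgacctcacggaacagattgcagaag
Myl3 (slow essential light chain), chr9:110671632-110671926, plus strand: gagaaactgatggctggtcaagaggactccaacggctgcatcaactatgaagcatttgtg
Myl2 (slow regulatory light chain), chr5:122553922-122554872, plus strand: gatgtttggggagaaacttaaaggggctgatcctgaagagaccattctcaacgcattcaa
Tnni1 (slow troponin I), chr1:137705328-137706203, plus strand: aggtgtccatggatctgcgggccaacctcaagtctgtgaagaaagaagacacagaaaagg
Tnnc1 (slow troponin C), chr14:32023360-32023776, plus strand: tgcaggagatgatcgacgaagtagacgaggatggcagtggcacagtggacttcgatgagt
Between the main probes of related members, the best ungapped match over at least 40 bases gave 18 to 40 identical bases of 60 for myosin heavy chains, 19 to 23 for myosin light chains, 24 for troponin T, 22 for troponin I, 19 for troponin C and 20 for alpha-actinin. The match of 40 bases was between Myh3 and Myh4, and the other myosin pairs matched at 25 bases or fewer. Probes were compared only with each other and not with the transcripts of related genes. Whether a probe also binds those transcripts was therefore not tested.

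The signal of the skeletal muscle genes differed widely between arrays of the same label. Acta1, the actin of the skeletal muscle thin filament, had Cy5 signals of 8528, 82930 and 22970 on arrays 1, 2 and 3 labelled wild type and of 46130, 354800 and 64510 on arrays 1, 2 and 3 labelled knockout. Ckm, the muscle creatine kinase that buffers ATP, had 746.5, 9890 and 1434 against 6229, 70540 and 7345. For both genes replicate 2 was the brightest array of its group, array 1 labelled wild type was the dimmest of all 6, and the groups overlapped. Replicate 2 had the highest Cy5 signal in both groups for 30 of the 37 genes, against 3.38% of all tested genes, and the highest log2 ratio of Cy5 over Cy3 in both groups for 26 of 37, against 14% of all. From array 1 labelled wild type to array 2 labelled knockout, Cy5 rose by a median of 72.8-fold over the 37 genes, and over the 34 measured on every array the median was 72.9-fold (range 1.23 for Myh7 to 274 for Ttn), while the median over all tested genes was 2.45-fold. In such bulk samples more muscle cells and more RNA per muscle cell cannot be told apart.

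**Figure D1:**
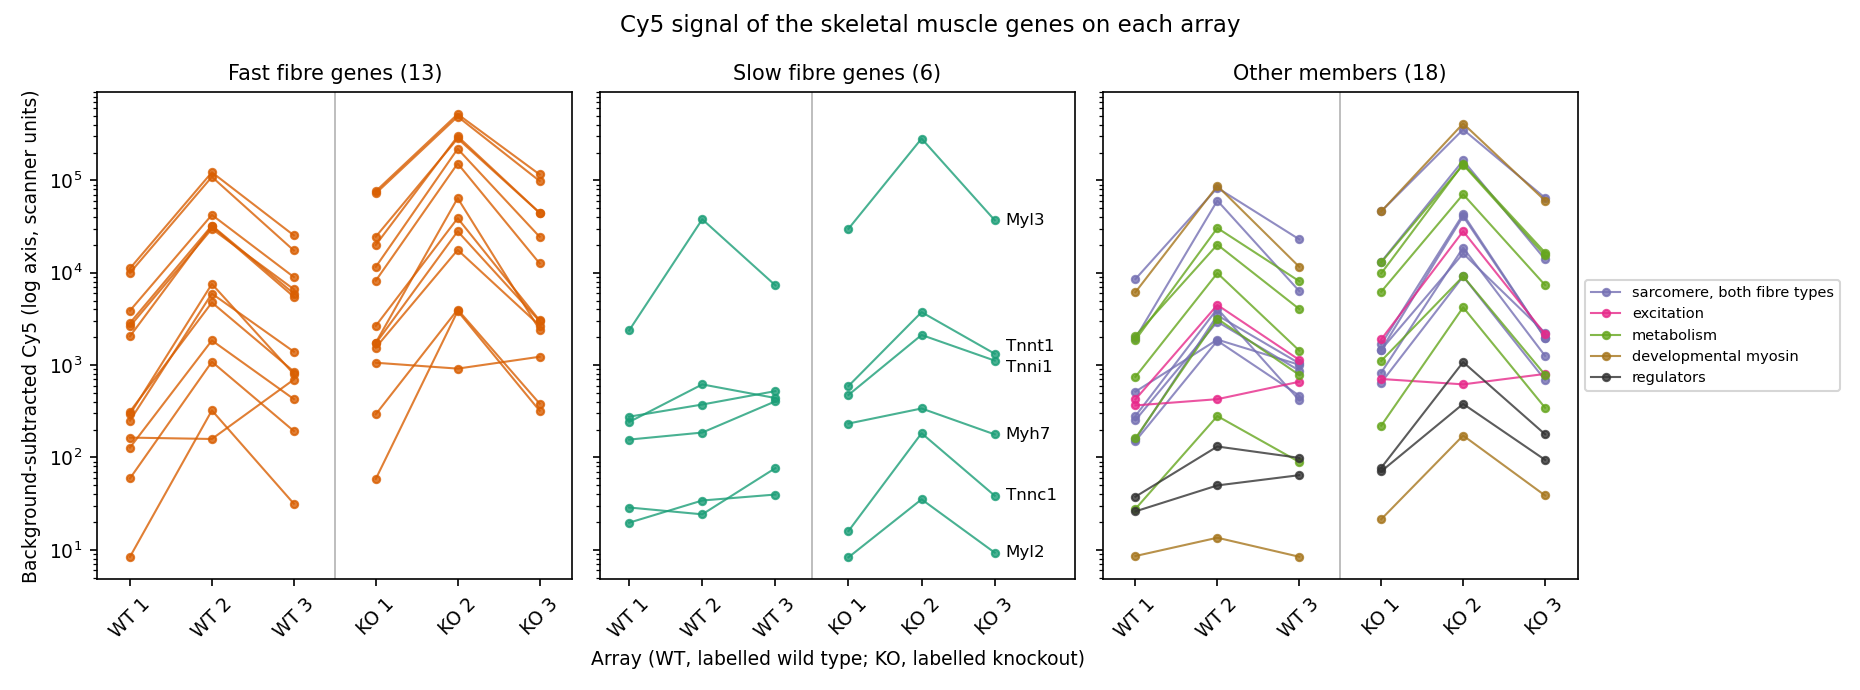
Background-subtracted Cy5 signal (log axis, scanner units) of the 37 genes, each by its main probe, on the 3 wild-type-labelled arrays (WT) and the 3 labelled knockout (KO). Each line joins the 3 arrays of a group for 1 gene, and levels of different genes are different probes and are not compared. Replicate 2 is the peak of its group for 12 of 13 fast fibre genes in both groups, and for 2 of 6 slow fibre genes.

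The 37 genes together made up 0.0642%, 0.767% and 0.0718% of the summed Cy5 signal on the wild-type-labelled arrays and 0.27%, 1.97% and 0.293% on the knockout-labelled arrays. The share thus spanned 11.9-fold within the first group and 7.3-fold within the second. Within a group, the SD of the log2 ratio pooled over both groups had a median of 1.13 over the 37 genes and 0.24 over all tested genes. 26 of the 37 lay above the 95th percentile of all genes, which was 0.68. Of the fast fibre genes 10 of 13 lay above it, and of the slow fibre genes 3 of 6.

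Among the fast myosin heavy chains, Myh1, the 2X myosin, had Cy5 signals of 3885, 42250 and 8975 on the wild-type-labelled arrays and 24510, 283800 and 44470 on the knockout-labelled arrays. Myh4, the 2B myosin of the fastest fibres, had 292.9, 7550 and 799.5 against 1746, 64070 and 2419. Both peaked on replicate 2 of each group, and the lowest array of the second group lay below the highest of the first. The fast troponins followed. Tnnt3, which ties the troponin complex to tropomyosin, had 2050, 31880 and 5491 against 8192, 152000 and 12610. Tnnc2, the calcium-binding subunit, had 9966, 109000 and 17400 against 76160, 520200 and 115700. Tnni2, the inhibitory subunit, had 11120, 122100 and 25370 against 72170, 489800 and 98340. All 3 fast troponin genes had the same order of arrays within each group as Acta1.

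The fast light chains gave the same picture. Mylpf had 2629, 29830 and 6619 against 11550, 219000 and 24490, and Myl1, the fast essential light chain, had 2854, 32370 and 5941 against 19930, 299300 and 44530. Actn3, the Z-disc actinin of fast fibres, had 127.9, 1848 and 428.4 against 1546, 17630 and 2678. Replicate 2 was highest again for each of these genes. Of the genes that return or hold calcium in fast fibres, Atp2a1 (the calcium pump SERCA1) had 250.8, 5942 and 1397 against 2655, 38870 and 3043. Casq1, which stores calcium in the sarcoplasmic reticulum, had 59.35, 1086 and 193.3 against 293.1, 3991 and 382.9. Pvalb, the soluble calcium buffer parvalbumin, had 8.399, 323.1 and 31.61 against 58.4, 3842 and 320.5. It was well above background on 2 of the 3 wild-type-labelled arrays. Myoz1, a fast-fibre Z-disc protein that binds calcineurin, had 313.7, 4758 and 850.9 against 1715, 28060 and 2987.

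The slow fibre genes did not move as a block. Myl3 followed the fast genes, with 2373, 37860 and 7294 against 29900, 283100 and 37030. Myh7 did not: its signals were 276.3, 374.1 and 522.6 on the wild-type-labelled arrays and 232.9, 339 and 177.7 on the knockout-labelled arrays. The highest of these 6 signals was 2.94-fold the lowest. Among the main probes of the fast fibre genes the smallest such span was 7.77-fold, for Myh2, whose other tested probes spanned 49-fold to 142-fold. Myl2 stayed dim, at 28.72, 24.23 and 76.64 against 8.299, 35.21 and 9.326, and was well above background on 4 of 6 arrays. Tnnc1 had 19.67, 34.2 and 39.68 against 15.98, 183 and 38.56, so that array 2 labelled knockout alone stood apart. Tnni1 had 242, 617.6 and 439.8 against 475.1, 2118 and 1118. Tnnt1 had 156.1, 186 and 405.2 against 593.7, 3741 and 1327, and all its knockout-labelled arrays were above all the wild-type-labelled arrays. For Tnnt1, Tnnc1, Myh7 and Myl2 the peak on replicate 2 was thus seen in background-subtracted Cy5 only among the knockout-labelled arrays.

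On the log2 ratio scale, the median of the 13 fast fibre genes was 2.57, 5.39 and 2.76 on arrays 1, 2 and 3 labelled wild type and 4.24, 5.57 and 4.28 on the knockout-labelled arrays. The median of the 6 slow fibre genes was 0.75, 1.04 and 0.64 against 0.44, 0.73 and 0.20. Fast genes therefore varied by several log2 units between arrays that differed little in the slow median. The gap between the fast and the slow median was 1.82, 4.34 and 2.12 against 3.8, 4.84 and 4.08, so the groups overlapped. The sign of a median over only 6 slow genes rests on few genes, since Myl3 moved with the fast genes and Myh7 and Myl2 did not.

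**Figure D2:**
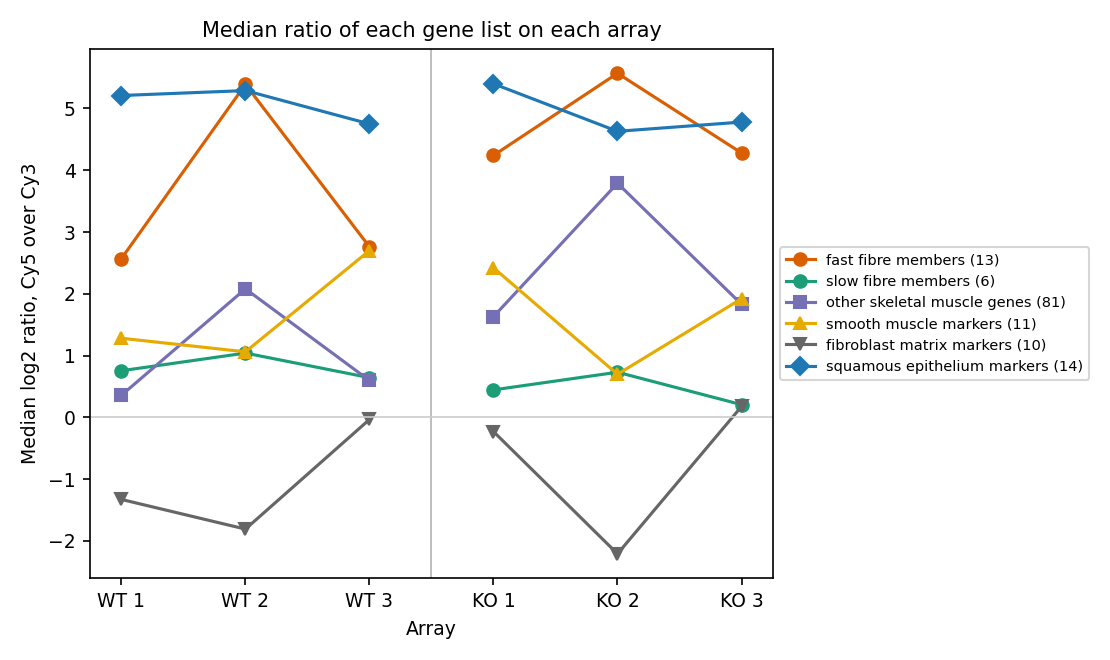
Median log2 ratio of Cy5 over Cy3 for gene lists on each array, wild-type-labelled arrays (WT) left and labelled knockout (KO) right. The fast fibre median peaks on replicate 2 of each group at 5.39 and 5.57, the slow fibre median stays between 0.20 and 1.04, and the fibroblast matrix median is lowest on replicate 2 of each group.

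The remaining sarcomere genes went with Acta1. Actn2, the alpha-actinin of all striated Z-discs, had 150.2, 1834 and 467.7 against 1468, 16150 and 2236. Ttn, the giant spring titin, had 157.1, 3460 and 1044 against 1682, 43040 and 1964 on its main probe, and each of its 8 tested probes had a positive difference, from 0.66 to 1.78 on the log2 scale. Neb, which lines the thin filament, had 280.7, 4079 and 416.2 against 1460, 40810 and 1962. Tcap, the telethonin that caps titin, had 1949, 60310 and 6325 against 13100, 163900 and 13950. Myot, a Z-disc protein, had 253.6, 2945 and 872.4 against 829.2, 18630 and 1259. Ldb3, which holds Z-discs under load, had 515.8, 1887 and 1007 against 645.5, 9120 and 690. All 7 genes of this class had their highest Cy5 signal on replicate 2 in both groups, as did all 5 metabolic genes.

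Of those metabolic genes, Eno3, the muscle enolase of glycolysis, had 2070, 20120 and 4043 against 9823, 150600 and 16530. Pygm, the glycogen phosphorylase of muscle, had 161.2, 3175 and 782 against 1110, 9126 and 785. Mb, myoglobin, which stores oxygen, had 1874, 30450 and 8088 against 12930, 147600 and 15380. The dimmest metabolic probe was that of Ampd1, the muscle AMP deaminase, with 27.73, 280.6 and 89.27 against 220.9, 4220 and 345.2. For Pygm array 3 labelled knockout lay next to array 3 labelled wild type, whereas for Eno3 it lay well above.

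Cacna1s, the voltage sensor of the transverse tubule, had 425.4, 4474 and 1138 against 1897, 28100 and 2157 and peaked on replicate 2. Myh8, the perinatal myosin, had 6149, 87050 and 11570 against 46030, 411900 and 60280. Myh3, the embryonic myosin, had 8.568, 13.52 and 8.416 against 21.42, 172.7 and 38.74, and was well above background on 4 of 6 arrays. From array 1 labelled wild type to array 2 labelled knockout Myh8 rose 67-fold in Cy5, and no fold is given for Myh3, which was well above background on 1 of 3 wild-type-labelled arrays.

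The myogenic regulators each had 10 spots per array. Myod1, which sets the muscle lineage, had mean Cy5 signals of 26.1, 49.8 and 64.3 on the wild-type-labelled arrays and 70.7, 380 and 94.2 on the knockout-labelled arrays. Myog, myogenin, which drives differentiation of myoblasts, had 37.6, 131 and 99 against 77.3, 1080 and 178. On array 2 labelled knockout the SD over the 10 spots of that array was 68.3 for Myod1 and 166 for Myog, which covers the spread between spots and not between samples. Both regulators had their highest log2 ratio there and their lowest on array 3 labelled wild type.

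Markers of other cell types the tissue could hold were read on the same arrays. The 14 squamous epithelial markers took 1.01% to 1.45% of Cy5 on the wild-type-labelled arrays and 1.08% to 1.49% on the knockout-labelled arrays, a span of 1.44-fold and 1.38-fold. The 10 fibroblast matrix markers all had their lowest ratio on replicate 2 in both groups, against 18.3% of all tested genes. The 11 smooth muscle markers took 0.054%, 0.0938% and 0.216% against 0.197%, 0.0727% and 0.182% of Cy5, and were highest on array 3 of the first group and array 1 of the second. Of the Schwann cell markers, S100b had 74.78, 223.3 and 256.3 against 137.5, 2191 and 322.2, with array 2 labelled knockout highest, as for most of the skeletal muscle genes. Of the cardiac markers, the cardiac myosin Myh6 stayed near background at 2.617, 8.113 and 20.7 against 36.81, 99.17 and 20.72, and was well above it on 4 arrays, but Myl7, the atrial light chain, was bright, at 8578, 13240 and 16380 against 5849, 15320 and 14040, and the 11 markers together took 0.0119%, 0.0217% and 0.0184% against 0.0173%, 0.033% and 0.0196%. The 5 adipocyte markers took 0.0007%, 0.00524% and 0.00275% against 0.00151%, 0.00558% and 0.00286%. The cardiac, adipocyte and Schwann cell shares were thus highest on replicate 2 in both groups, as was the skeletal muscle share. The part of these other cells in the results was not tested.

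In the comparison of knockout-labelled arrays with wild-type-labelled arrays, 33 of the 37 genes had a positive difference of the log2 ratio and 4 a negative one, with a median of 1.03, against 0.01 over all tested genes. The median was 1.28 for the fast fibre genes, where 12 of 13 were positive, and 0.59 for the slow fibre genes, where 4 of 6 were positive. Without regard to the replicate number, 1 gene was called higher at an adjusted p under 0.05 (limma, Benjamini-Hochberg over all tested probes) and 0 lower, against 2.83% of all tested genes called higher and 2% called lower. At an unadjusted p under 0.05, 4 of the 37 passed, against 24.7% of all. The groups did not overlap for 3 genes, against 32.2% of all: Myh2 and Tnnt1 were higher on every array labelled knockout, as were 17.1% of all genes, and Myh7 was lower, as were 15.1%. Large differences with few calls go together here with the wide spread between arrays of a group given above. For Acta1, for example, the ratio was 4.15 ± 1.54 (SD, n = 3) on the wild-type-labelled arrays and 5.31 ± 0.83 (SD, n = 3) on the knockout-labelled arrays, a difference of 1.16 with SE 0.77 and adjusted p = 0.404 (limma).

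The replicate numbers are shared between the labels, and same-numbered arrays deviated from their group means together over all tested genes, with correlations of 0.14, 0.49 and 0.32 for numbers 1, 2 and 3. Array 1 labelled wild type correlated as well with array 3 labelled knockout, at 0.16. The numbers also fix the position on the slide, from 2 to 4, and pairing and position cannot be told apart. By pair, the ratio of the array labelled knockout was higher for 31 of 37 genes in pair 1, 24 in pair 2 and 35 in pair 3, with median differences of 1.38, 0.47 and 1.16. 20 genes were higher in all 3 pairs, against 27.2% of all tested genes, and Myh7 was lower in all 3, against 23.4% of all.

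With the replicate number as a block, 16 of the 37 genes were called higher and 1 lower (limma, adjusted p under 0.05), while 4.97% of all tested genes were called higher and 3.23% lower, 8.2% together. Of the fast fibre genes 8 of 13 were higher and 0 lower: with the block Actn3 differed by 2.31 (SE 0.22, adjusted p = 0.00503), Pvalb by 1.91 (adjusted p = 0.0218), Myl1 by 1.77 (adjusted p = 0.0265), Myoz1 by 1.60 (adjusted p = 0.0441), Mylpf by 1.47 (adjusted p = 0.0394), Tnnt3 by 1.28 (adjusted p = 0.0446) and Casq1 by 1.18 (adjusted p = 0.0436). Myh2 completes these 8. Among the genes well above background on every array, which leaves out Pvalb, 7 of 12 fast fibre genes and 15 of 34 in all were called higher with the block. Of the slow fibre genes Tnnt1 was higher by 1.68 (adjusted p = 0.042) and Tnni1 by 1.15 (adjusted p = 0.0393), and Myh7 fell by 0.93 (SE 0.16, adjusted p = 0.0247). Of the shared sarcomere genes Actn2, Ttn and Myot were called, and Cacna1s was called with a difference of 1.30 (adjusted p = 0.00952). Of the metabolic genes Eno3 differed by 1.94 (adjusted p = 0.00418) and Ampd1 by 1.53 (adjusted p = 0.00619). Neither developmental myosin and neither regulator was called, nor were Acta1 (adjusted p = 0.0596) and Ckm (adjusted p = 0.189), with or without the block. Without the block, the adjusted p of these 16 genes other than Myh2 lay between 0.0868 for Tnnt1 and 0.631 for Myot, and that of Myh7 was 0.09.

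**Figure D3:**
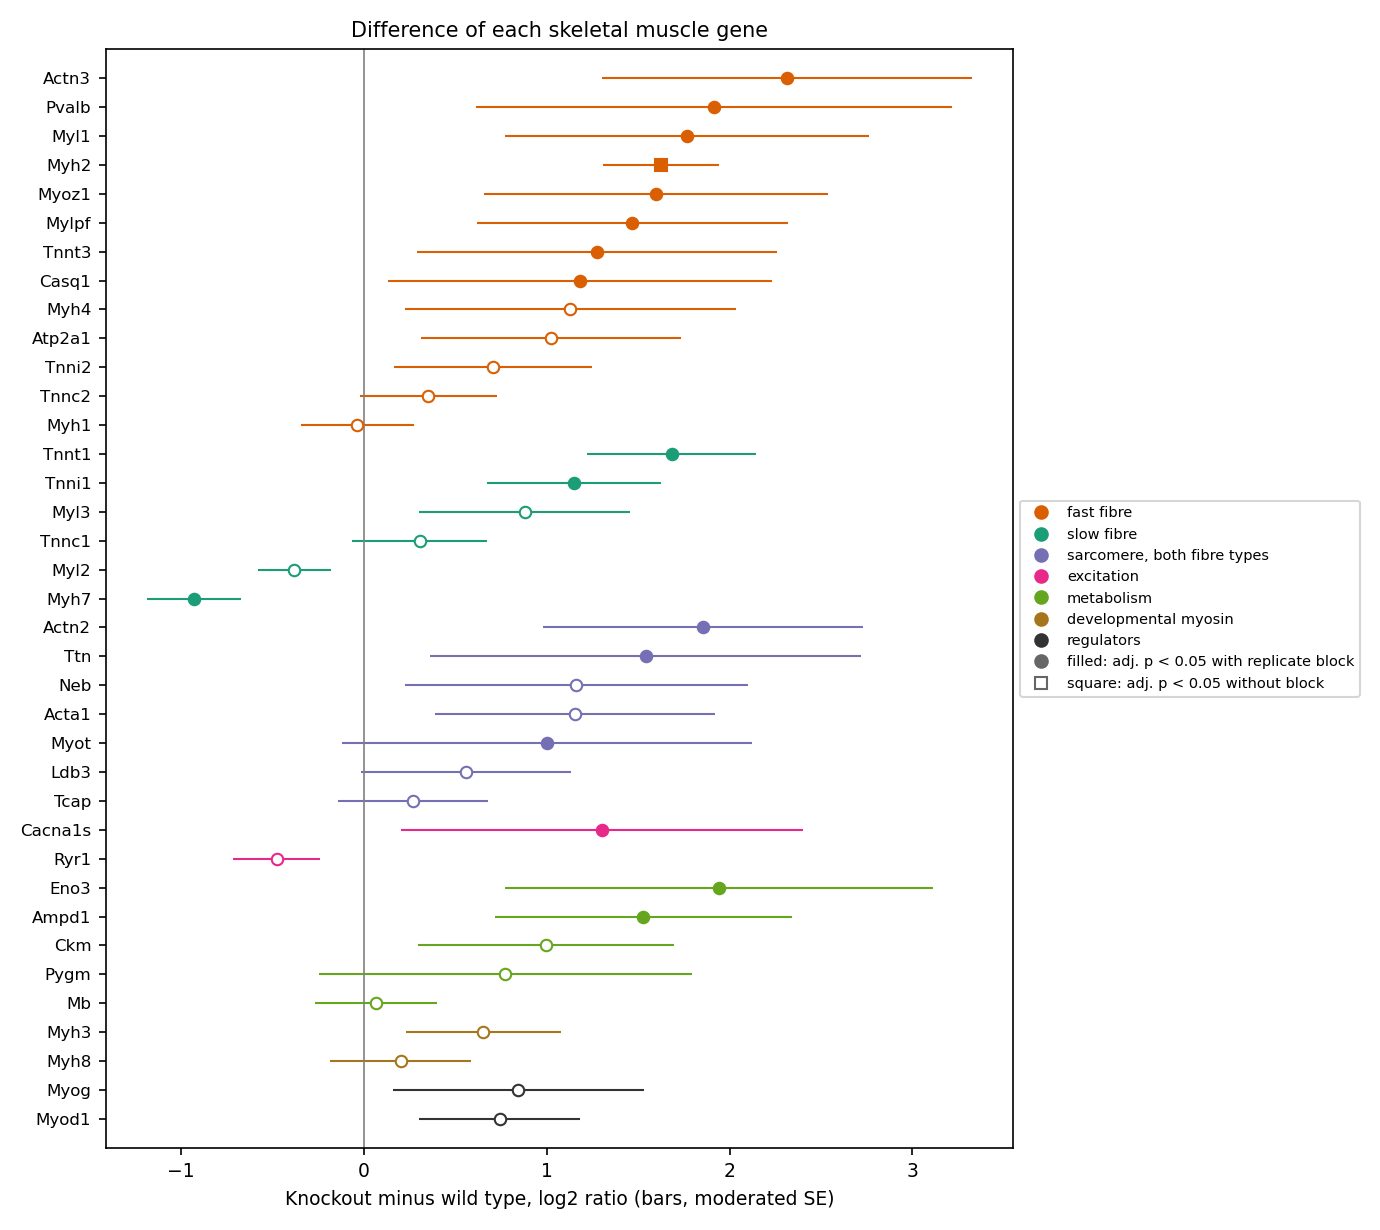
Difference of the log2 ratio, knockout-labelled arrays minus labelled wild type, for each of the 37 genes, with the moderated SE of the fit without a block as bars. Filled symbols mark the 17 genes with an adjusted p under 0.05 once the replicate number is a block, and the square marks Myh2, which also passes without it. Most points lie right of 0, and Myh7, Ryr1, Myl2 and Myh1 lie left of it.

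The arrays of replicate 2 carried most of the muscle signal, so the fit was also run without them in both groups, a choice made after their values were seen. It called 13 of the 37 genes higher and 0 lower, against 1.12% and 0.437% of all tested genes, 1.56% together. Acta1 then differed by 1.58 (adjusted p = 0.0399), Ckm by 1.71 (adjusted p = 0.0474), Myh4 by 1.94 (adjusted p = 0.0262) and Myl3 by 1.42 (adjusted p = 0.0399). Of these 13 genes 8 were also among the 16 called with the block: Actn2, Actn3, Cacna1s, Eno3, Myl1, Mylpf, Myoz1 and Tnnt3. For these 8 genes arrays 1 and 3 labelled knockout lay above arrays 1 and 3 labelled wild type in Cy5. Being called higher on those same arrays nearly fixes this, so it adds no support. The share of all tested genes with such a separation was not counted. With replicate 2 left out of only 1 group, or any other array left out, 0 or 1 of the 37 genes was called.

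Myh2, the 2A myosin, was the 1 gene past the threshold without the block, with a difference of 1.63 (SE 0.32, adjusted p = 0.0402, limma). The call came from its probe of highest mean intensity, at chr11:66987588-66987647 (mm9), where Cy5 was 164, 158.5 and 696.9 on the wild-type-labelled arrays and 1060, 915.6 and 1230 on the knockout-labelled arrays. That probe had no peak on replicate 2. The other 3 tested probes of Myh2 lie downstream and did have it: the probe whose sequence is given above had 94.36, 1063 and 148 against 232.4, 4624 and 471.2. Their differences were 1.14 to 1.47, with adjusted p between 0.517 and 0.57, and with the probes averaged Myh2 had an adjusted p of 0.347. The call also depended on single arrays. Without array 1, 2 or 3 labelled wild type the adjusted p was 0.135, 0.0932 and 0.0238, and without array 1, 2 or 3 labelled knockout it was 0.115, 0.0572 and 0.163. Over the 19 alternatives run, Myh2 was called in 9, with differences from 1.35 to 1.95 and adjusted p from 0.0064 to 0.347.

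Ryr1, the calcium release channel of skeletal muscle, showed a similar split between probes. Its probe of highest mean intensity, at chr7:29807633-29807692, had Cy5 signals of 365.8, 427.5 and 659.8 against 707, 618.3 and 802, and a difference of -0.48 (adjusted p = 0.283). Its other tested probes, at chr7:29789818-29790524 and chr7:29788789-29789487, followed the muscle pattern, with 87.12, 1291 and 297.9 against 608.8, 11600 and 762.3 on the first. Their differences were 1.70 and 1.67, with adjusted p of 0.422 and 0.356. The direction for Ryr1 therefore turns with the probe, and it also turned in Cy5 alone, at 0.16. Which transcripts the main probes of Myh2 and Ryr1 read was not tested.

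**Figure D4:**
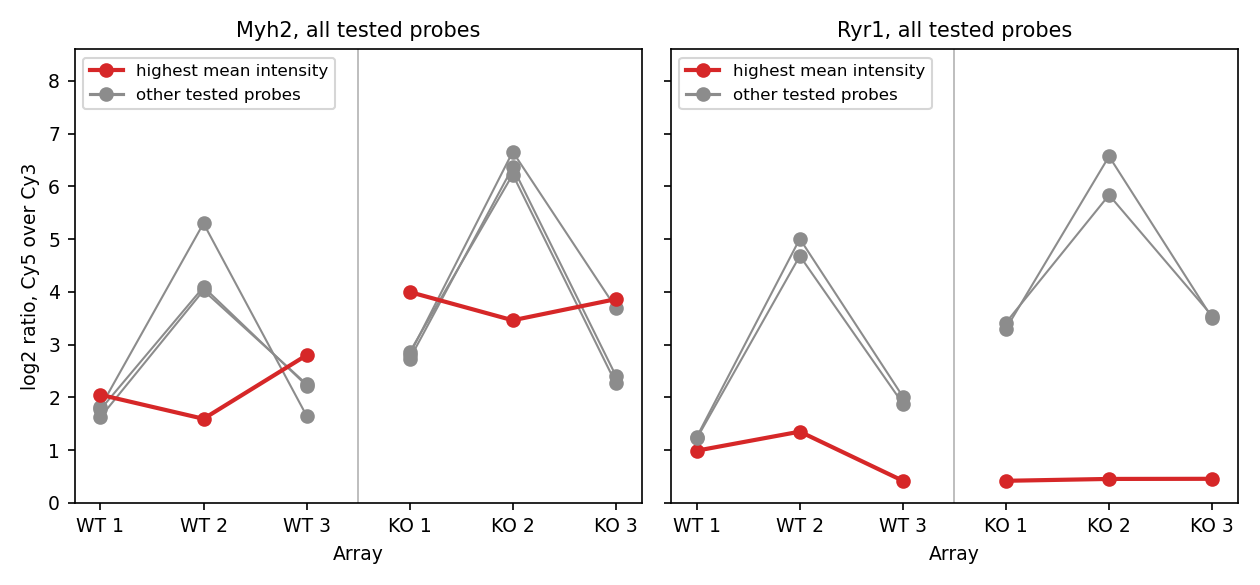
Log2 ratio of Cy5 over Cy3 on each array for the 4 tested probes of Myh2 and the 3 of Ryr1, red for the probe with the highest mean intensity and grey for the others. The grey probes peak on replicate 2 of each group. The red Myh2 probe is lowest there in both groups, and the red Ryr1 probe stays between 0.42 and 1.35 on all arrays.

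Myh7 and Tnnt1 moved in opposite directions among the slow fibre genes. The Myh7 ratio was 1.79, 2.01 and 1.37 on the wild-type-labelled arrays and 1.03, 1.02 and 0.33 on the knockout-labelled arrays, a difference of -0.93 (SE 0.26, adjusted p = 0.09). Its second probe, which overlaps the first on the genome, had a difference of -0.53 (adjusted p = 0.241) and overlapping groups. Tnnt1 had ratios of -2.16, -2.23 and -2.60 against -1.53, 0.43 and -0.85, a difference of 1.68 (SE 0.46, adjusted p = 0.0868). On Cy5 alone, where 30.7% of all tested genes were called (15.4% higher and 15.3% lower), Tnnt1 was called higher (adjusted p = 0.0225), Myh7 lower (adjusted p = 0.0341) and Myh2 higher (adjusted p = 0.0121), and no other of the 37 genes was. With array weights the same 3 genes were called, against 9.18% of all genes higher and 7.89% lower, 17.1% together. The difference between the responses of Myh7 and Tnnt1 was not tested.

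The reference channel moved with the muscle signal. The Cy3 RNA was the same on every array, yet the Cy3 signal of Myh1 was 302.3, 1841 and 362 on the wild-type-labelled arrays and 769.1, 7005 and 1374 on the knockout-labelled arrays. That of Mb was 263.8, 2244 and 469.4 against 513.9, 7182 and 812.9. For 28 of the 37 genes Cy3 was highest on array 2 labelled knockout, against 15.4% of all tested genes, and for 17 of 37 it was over 3-fold higher there than on array 1 labelled wild type, against 4.45% of all. The ratio of these genes thus rose less between arrays than their Cy5 did. For Myh1 the difference of the ratio was -0.03 (adjusted p = 0.959) while that of Cy5 alone was 1.91 (adjusted p = 0.202), and for Mb they were 0.07 and 1.43. Some genes whose Cy3 hardly moved from array 1 labelled wild type to array 2 labelled knockout gave like values on both scales. For Actn3, with a Cy3 step of 1.03-fold, the difference was 2.31 in the ratio and 2.40 in Cy5, and for Cacna1s it was 1.30 in both. The main probe of Ryr1, with a Cy3 step of 0.996-fold, did not, at -0.48 in the ratio and 0.16 in Cy5. That step is between single arrays. Over all arrays its Cy3 was 0.64 higher on slide 2 than on slide 1 (log2), and the ratio takes Cy3 off Cy5. What raised Cy3 at these spots was not tested. Over all tested genes, the Cy3 signal alone differed between the slides for 51.8% (limma, adjusted p under 0.05). Of the 37 it did so for Tnnt1 (0.21), Ryr1 (0.64), Eno3 (-0.22), Tnni1 (-0.29) and Myod1 (0.21, log2, slide 2 minus slide 1).

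**Figure D5:**
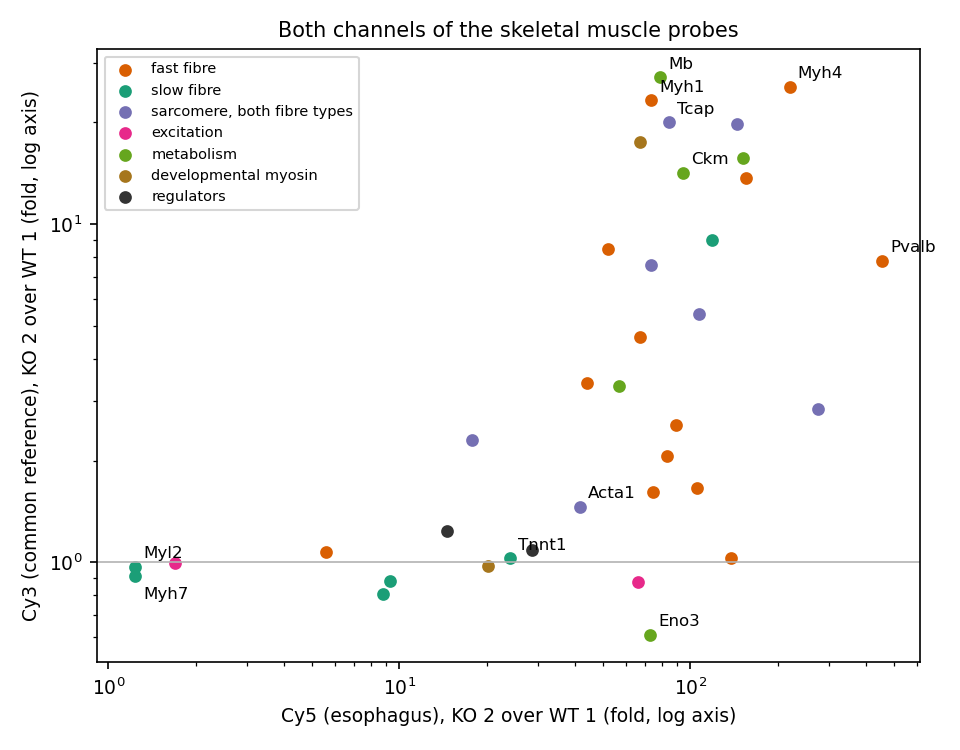
Fold step from array 1 labelled wild type (WT 1) to array 2 labelled knockout (KO 2) for each of the 37 genes, in the esophagus channel Cy5 (x, log axis) and in the common reference channel Cy3 (y, log axis). Pvalb and Myh3 were not well above background in Cy5 on WT 1, so their x values are no exact folds. A reference that did not move would lie on the line at 1; Mb, Myh4 and Myh1 have the highest Cy3 steps of the 37, and Eno3 has the lowest, below 1.

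A list of 86 other skeletal muscle genes, 81 of them tested, was set beside the 37. 70 had a positive and 11 a negative difference, with a median of 1.07, and 63 of 81 (77.8%) had their highest ratio on replicate 2 in both groups, against 14% of all tested genes. Without the block 1 was called higher and 0 lower (2.83% and 2% of all tested genes), namely Fbp2, the muscle fructose bisphosphatase, with Cy5 signals of 986.2, 876.7 and 2455 against 3176, 5548 and 4539 and a difference of 0.86 (SE 0.16, adjusted p = 0.0357). Leaving out any of the 6 arrays ended that call, with adjusted p from 0.0646 to 0.13. It was also lost with the background minimum, where the difference was 0.59 (adjusted p = 0.214), and with the deposited log ratio, where it was 0.34 (adjusted p = 0.629), and Scn4a was then called in its place. With the block 39 of the 81 were called higher and 0 lower, against 4.97% and 3.23% of all tested genes. Without both replicates 2 it was 14 and 0, against 1.12% and 0.437%. Scn4a, the sodium channel of the muscle membrane, and Cdh15, the M-cadherin of satellite cells, had the next smallest p, with differences of 1.12 (adjusted p = 0.0541) and 1.23 (adjusted p = 0.127) without the block and adjusted p of 0.0391 and 0.0427 with it. For Scn4a the difference on Cy5 alone was -0.02.

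RefSeq promoter sequences (assembly GRCm38.p6) matched 28 of the 37 genes, and the 250 bases before each listed start were searched on both strands for motifs known from muscle promoters. The E-box CAGCTG, a sequence that MyoD and myogenin can bind, was before at least 1 start in 12 of 28 (42.9%) and in 14.7% of all 27025 genes with a promoter. At the first listed start alone it was in 10 (35.7%) against 12.8%, the difference being Mb and Myl2. The CArG box, bound by serum response factor, was in 4 (14.3%) against 1.62%, and the MEF2 site in 5 (17.9%) against 3.42%. CAGCTG was in 5 of 9 fast and 2 of 6 slow fibre genes before any start, and in 5 and 1 at the first. No matches of different motifs overlapped. The promoters of Acta1, Mylpf and Myh7 are given with matches in capitals. Acta1 holds CAGCTG and a CArG box, Mylpf holds CAGCTG, and Myh7 holds no match in this window. In background-subtracted Cy5, Acta1 and Mylpf peaked on replicate 2 of both groups, and Myh7 only of the knockout-labelled group. In Cy5 scaled by loess and Aquantile, Myh7 too was highest on replicate 2 of both groups (log2 9.67, 9.86 and 9.27 against 8.88, 8.96 and 8.28). Matches and the peak did not always go together. Tnnc2, Actn2 and Eno3 peaked in Cy5 on replicate 2 of both groups with no match before their only listed start. Myl2 did not peak there in both groups, yet had CAGCTG before 1 of 2 starts. A match is a run of letters and not a bound site.
Acta1, chr8:123894776-123895025, minus strand: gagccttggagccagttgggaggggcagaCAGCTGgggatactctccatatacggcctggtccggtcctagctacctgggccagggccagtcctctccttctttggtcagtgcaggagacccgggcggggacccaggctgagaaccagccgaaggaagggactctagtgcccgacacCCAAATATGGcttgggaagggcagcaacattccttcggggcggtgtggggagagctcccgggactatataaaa
Mylpf, chr7:127211358-127211607, plus strand: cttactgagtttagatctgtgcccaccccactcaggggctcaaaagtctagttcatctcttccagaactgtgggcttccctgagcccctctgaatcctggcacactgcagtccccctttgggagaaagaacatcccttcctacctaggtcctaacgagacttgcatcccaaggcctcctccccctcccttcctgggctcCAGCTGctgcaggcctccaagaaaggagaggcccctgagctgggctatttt
Myh7, chr14:54994627-54994876, minus strand: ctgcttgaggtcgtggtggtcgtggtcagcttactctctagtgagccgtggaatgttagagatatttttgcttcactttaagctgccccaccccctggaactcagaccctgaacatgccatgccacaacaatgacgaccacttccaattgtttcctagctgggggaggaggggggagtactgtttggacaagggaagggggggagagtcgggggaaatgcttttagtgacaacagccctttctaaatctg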

How the data were processed

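The authors deposited, for each spot, linear intensity in both channels and a log10 ratio. Feature Extraction 10.7.3.1, array design 014868 and mm9 probe positions stand in these tables, per the file headers, whereas version 9.1 appears in the submitters' processing notes. The deposited matrix of log2 values correlated at -0.993 to -0.996 with the scanner ratio of the same array, so its sign was turned. Its column medians, -0.021 to 0.016, do not tell how it was centred.

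Background was corrected by normexp (offset 50), followed by loess on each array with control spots at weight 0. Outlier spots were set to missing and spots of a probe averaged. Testing was limited to the 30505 probes with Cy5 well above background on every array of a group. Knockout minus wild type was fitted in limma 3.58.1 (R 4.3.3), two-sided, with Benjamini-Hochberg adjustment and a threshold of 0.05. A gene stands by its tested probe of highest mean intensity over both channels. Cy5 alone was scaled by loess and Aquantile, whereas per-array Cy5 values are background-subtracted only. The fit was tested on simulated data in which every gene varied independently on every array, with no slide effect and no pairing. That test therefore cannot speak of spread shared between genes or arrays, and its outcome is not given here. The number of arrays limits the precision.

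The 37 genes, the other lists and the rule for named genes (all 37, and in the list of other skeletal muscle genes the 3 with the smallest p) were chosen with earlier results of these data known. S100b, Myh6 and Myl7 were picked from their lists after their values were seen. Same-numbered arrays of the groups correlated at 0.14, 0.49 and 0.32 in their deviations, each above 0.1, and the number was fitted as a block on that ground. Pairing by number is not established. Array 1 labelled wild type correlated at 0.16 with array 3 labelled knockout, and the numbers also fix the position on the slide. The labels do not say what the numbers mark. Fits without and with a replicate block are both given. A planned comparison of fast and slow proteins was not run, and protein sequences were not used here.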

Additional observations from a re-analysis of the deposited data

How the results depend on the processing

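The direction of the median difference of all 37 genes, of the fast and slow fibre genes and of the gap between those 2 held under every alternative run. Without 1 array they lay at 0.545 to 1.88 for the 37, 0.728 to 2.3 for fast, 0.291 to 0.989 for slow and 0.235 to 1.31 for the gap. The slow median difference was 0.831 with median centring, 0.879 with only probes above background on all arrays and 0.28 with array weights. Its sign depends on how the median is taken. The slow median on each array was lower in the knockout-labelled group for each replicate number (0.754, 1.04 and 0.642 against 0.444, 0.73 and 0.205). Calls of the 37 genes were 0 higher with the deposited log ratio, the series matrix, median centring and probes averaged, 2 higher and 1 lower with Cy5 alone and with array weights, 16 and 1 with the replicate block, 13 higher without both replicates 2, and 0 to 1 higher and 0 lower without 1 array. Other skeletal muscle genes called higher were 0 with median centring and with a trend in eBayes, 3 with Cy5 alone, 4 with array weights, 39 with the replicate block, 2 with probes averaged, 14 without both replicates 2 and 0 to 1 without 1 array; called lower were 5 with Cy5 alone, 1 with array weights and 0 to 1 without 1 array. Over the whole array 571 genes passed with the deposited log ratio, 561 with the series matrix, 120 with median centring, 6393 with Cy5 alone, 558 with only probes above background on all arrays, 3555 with array weights, 1707 with the replicate block, 324 without both replicates 2 and 34 to 826 without 1 array, against 1007.

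Single genes near 0 changed sign. Mb was -0.0495 with the background minimum, -0.00405 with array weights, and -0.0401, -0.122 and -0.199 without wild type 1, wild type 3 and knockout 1. Myh8 was -0.0599 by either set of deposited ratios, -0.109 with array weights and -0.236 without wild type 3. Myh1 was 0.535 with median centring, 1.91 in Cy5 alone, 0.379 with probes averaged, 0.278, 0.0463 and 0.00424 without wild type 2, knockout 2 and knockout 3, and 0.359 without both replicates 2. Ryr1 was 0.163 in Cy5 alone, 0.966 with probes averaged and 1.67 by its probe of highest Cy5. Tnnc1 was -0.0971 with array weights, -0.108 without knockout 2 and -0.033 without both replicates 2. Scn4a was -0.0217 in Cy5 alone, Pygm -0.0819 without wild type 1, and Tnnc2 -0.0359 and Tcap -0.0441 without wild type 3. Without 1 array these genes reached, at the other end, 0.365 (Mb), 0.538 (Myh8), -0.339 (Myh1), 0.533 (Tnnc1), 0.749 (Tnnc2) and 0.738 (Tcap). The cause was not tested. Leaving out both replicates 2 and taking the probe of highest Cy5 were chosen after seeing the data.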
